A study of Mus musculus with 4 samples.

Results

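Telomerase, the enzyme that extends chromosome ends, and shelterin, the protein complex that covers them, were followed through 10 genes: the telomerase RNA Terc, the reverse transcriptase Tert, the H/ACA proteins Dkc1, Nop10, Nhp2 and Gar1, and the shelterin proteins Terf1, Terf2, Tinf2 and Pot1a. The 10 genes were picked out of the 43629 gene identifiers of the count data by name, and the group was chosen by the rise of Terc in these same libraries, so the change of Terc is given as a description with no test. RNA was sequenced from 4 libraries of CD117+ hematopoietic stem and progenitor cells (HSPCs), 2 control and 2 Chaf1b-deleted, after ribosomal RNA depletion of total RNA, a method that keeps RNAs without a poly(A) tail. All cells came from C57Bl/6 mice with the genotype Chaf1b (fl/fl), aged 8 to 12 weeks, and grew in medium with SCF, IL6 and IL3. Control HSPCs were infected with the empty retroviral vector MIGR1 and Chaf1b-deleted HSPCs with MIGR1-Cre, and eGFP-positive cells of both groups were sorted 48 h later. Chaf1b encodes a subunit of CAF-1, the chaperone that places histones on newly replicated DNA. The recombinase was delivered to the deleted cells only, so its presence and the loss of Chaf1b cannot be told apart.

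Telomerase copies a short template within its own RNA onto chromosome ends. The RNA ends in an H/ACA domain, a fold shared with the small nucleolar RNAs (snoRNAs) that guide pseudouridylation, and the same 4 proteins, dyskerin (Dkc1), Nop10, Nhp2 and Gar1, bind both kinds of RNA and keep them stable. Stem and progenitor cells of the blood depend on telomerase, and inherited defects of its RNA or of dyskerin in people cause bone marrow failure. Terf1 and Terf2 bind double-stranded telomere repeats, Tinf2 bridges them, and Pot1a covers the single-stranded overhang.

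The annotation of the genome build used for the counts (NCBIM37, or mm9) gives the name Telomerase-vert to 2 single-exon loci on chromosome 3, both of biotype misc_RNA and both on the minus strand. All Terc counts lay on the first, ENSMUSG00000064796, at chr3:96218360-96218782, which spans 423 bases. The second, ENSMUSG00000065361, at chr3:30494268-30494679, spans 412 bases and had 0 counts in each of the 4 libraries, which by the 95% Wilson interval allows up to 0.151 to 0.208 CPM in a library (CPM is the count of a gene scaled by the total counted on genes, per 1000000). The ends of both loci are printed to show how alike the counted and the uncounted copy are. In the 5′ windows the capitals mark the template core CTAACCC, in the 3′ windows they mark the 3 bases at the place of the terminal ACA box, and in the upstream windows they mark a CCAAT motif, which both loci hold.
Terc, first 90 bases, chr3:96218693-96218782, minus strand: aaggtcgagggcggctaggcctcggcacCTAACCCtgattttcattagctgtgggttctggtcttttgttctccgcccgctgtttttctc
Second locus, first 90 bases, chr3:30494590-30494679, minus strand: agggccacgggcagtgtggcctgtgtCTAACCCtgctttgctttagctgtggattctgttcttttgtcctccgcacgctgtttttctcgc
Terc, last 60 bases, chr3:96218360-96218419, minus strand: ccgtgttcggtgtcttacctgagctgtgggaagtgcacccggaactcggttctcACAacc
Second locus, last 60 bases, chr3:30494268-30494327, minus strand: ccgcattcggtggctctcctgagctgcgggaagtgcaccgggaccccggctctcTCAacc
Terc, 120 bases upstream, chr3:96218783-96218902, minus strand: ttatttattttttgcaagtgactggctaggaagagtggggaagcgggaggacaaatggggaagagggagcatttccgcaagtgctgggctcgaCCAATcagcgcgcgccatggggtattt
Second locus, 120 bases upstream, chr3:30494680-30494799, minus strand: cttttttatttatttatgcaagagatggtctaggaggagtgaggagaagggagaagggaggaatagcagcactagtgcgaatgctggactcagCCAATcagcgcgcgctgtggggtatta

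Both loci hold the template core, at bases 29 to 35 of the first and 27 to 33 of the second, counted from 1 at the 5′ end. The first ends with an ACA 3 bases before its 3′ end, as H/ACA RNAs do, and the second has TCA there. Over 436 aligned columns 348 bases were identical, or 79.8%, and 4.07% of the 31-base stretches of Terc occur elsewhere in the genome. Terc below means the first locus.

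Chaf1b itself was checked first. It had 80.3 and 57.9 CPM in the control and 16.1 and 17.9 CPM in the deleted libraries, a log2 fold change of -2.01 (SE 0.25) with an adjusted p of 0.0330 in edgeR's quasi-likelihood test. The libraries held between 18468637 and 25409926 counts on genes, so that 3 counts, the smallest number treated as detected, correspond to 0.118 to 0.162 CPM. The HSPC markers (Kit, Cd34, Gata2, Myb, Ptprc) summed to between 1417 and 1689 CPM and the neutrophil markers (Ltf, Camp, Ngp, S100a8) to between 29422 and 40403 CPM, so that granule genes were abundant in both groups. Single markers moved within these sums. Cd34 had a log2 fold change of 0.57 (edgeR adjusted p = 0.325), Myb one of -0.59 (edgeR adjusted p = 0.313) and Ltf one of 0.94 (edgeR adjusted p = 0.373). Of the HSPC markers 2 were above 0 and 3 below, and of the neutrophil markers 3 above and 1 below. Without deleted replicate 1, described next, both balances turned. The HSPC markers then had 3 above 0 and 2 below, and the neutrophil markers 1 above and 3 below (median -0.22). Chaf1b-deleted replicate 1 stood apart from the other 3 libraries. It had 7905 counts of Xist, the RNA of the inactive X chromosome, where the others had 23 to 33, and its 10 interferon-stimulated genes had a median log2 difference from the control mean of 3.64, against 0.38 in deleted replicate 2. Its snoRNAs took 0.0799% of the counts, against 0.141% to 0.144% in the others. Values of the 10 genes and of the gene lists are given also without this library where that turns their sign or moves them by more than 1.5 times. Labels do not say whether replicates came from separate mice, so p-values measure only the spread between these libraries. Intervals of single CPM values are 95% Wilson intervals and cover counting error only, as the reads carry no molecular identifiers.

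Terc, the RNA that carries the template, was higher in HSPCs that had lost Chaf1b. It was counted 411 and 390 times in control replicates 1 and 2, and 2274 and 1832 times in deleted replicates 1 and 2. These counts were 18.1 CPM (16.4 to 19.9) and 15.3 CPM (13.9 to 16.9) in the controls, and 96.6 CPM (92.7 to 101) and 99.2 CPM (94.8 to 104) after deletion. Both deleted libraries lay far above both controls, and within each group the libraries lay close together. The means were 16.7 ± 1.93 and 97.9 ± 1.83 CPM (SD, n = 2 each), a ratio of 5.86, and the fitted log2 fold change was 2.58 (SE 0.22). These are the values by which the group of genes was chosen. Without deleted replicate 1, the library that stood apart, the log2 fold change was 2.49, and leaving out any 1 library kept it between 2.45 and 2.70. As these are bulk samples, a change in RNA per cell and a change in the share of cells that hold the RNA cannot be told apart.

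**Figure D1:**
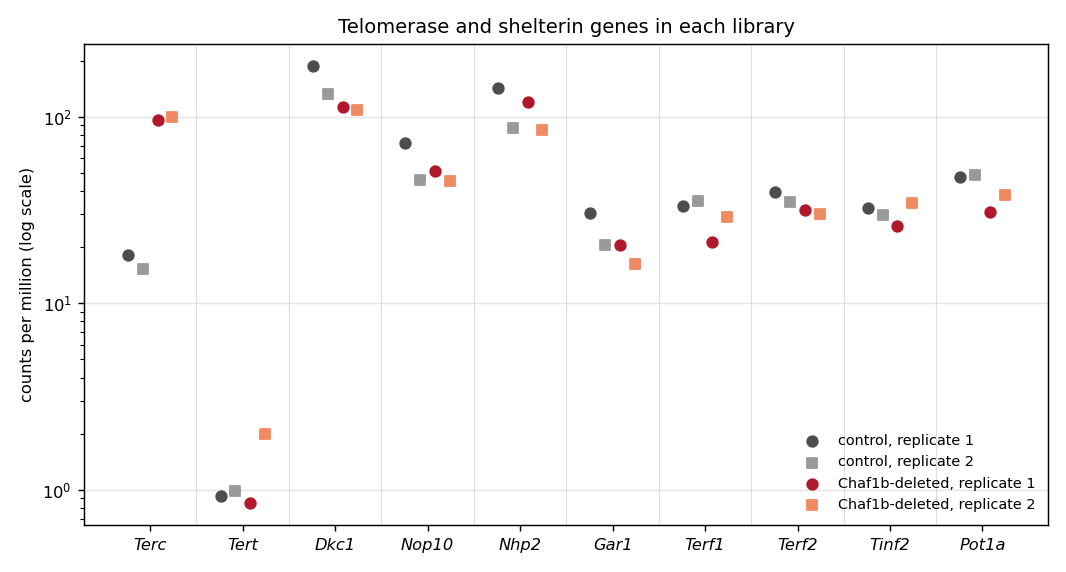
CPM (log axis) of the 10 telomerase and shelterin genes in each of the 4 libraries, 1 point per library, with no error bars. The telomerase RNA Terc sits at 96.6 and 99.2 CPM in the deleted libraries and at 18.1 and 15.3 in the controls. The 4 points of each other gene lie within a narrower span than those of Terc.

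None of the other 9 genes was called changed, where a call meant a 1.5-fold or larger change whose p in edgeR's quasi-likelihood test, adjusted by Benjamini-Hochberg over all 16500 genes tested, was under 0.05. Across all genes 62 were called in either direction (0.376%), a share that amounts to less than 1 gene in 9. At an unadjusted p under 0.05 the count was again 0 of 9, against 12.3% of all genes. All 9 passed the filter on low counts. Their log2 fold changes ran from -0.50 to 0.56 with a median of -0.26, and 8 of the 9 were below 0, beside a median of -0.03 over all genes. For 5 of the 9 (55.6%) both deleted libraries were below both controls on the CPM scale, which held for 22.9% of all genes, and none had both deleted libraries above both controls, which held for 21.4%. With normalization factors applied the first count was 3 of 9 (33.3%, Dkc1, Terf1 and Pot1a), against 21.4% of all genes, since the groups of Gar1 and Terf2 then overlapped. Without deleted replicate 1 the median of the 9 was -0.42, 7 of them were below 0 and again 0 were called.

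Tert, the reverse transcriptase and usually the scarcest part of the enzyme (ENSMUSG00000021611, chr13:73764449-73786489), had few counts in every library. Its reads numbered 21 and 25 in control libraries, against 20 and 37 after deletion, or 0.924 and 0.984 CPM and 0.850 and 2.00 CPM. Deleted replicate 2 was the highest and deleted replicate 1 the lowest, so the groups overlapped. The log2 fold change was 0.56 (SE 0.57, 95% interval -0.77 to 1.89, edgeR adjusted p = 0.762), an interval that holds both a fall and a rise. Without deleted replicate 2 it was -0.027, so the positive value rests on that library, and without deleted replicate 1 it was 0.99.

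Of the 4 H/ACA proteins all had a log2 fold change below 0, and 0 of 4 were called. Dkc1, the pseudouridine synthase dyskerin (ENSMUSG00000031403, chrX:72341193-72355116), had 188 and 133 CPM in the control and 113 and 109 CPM in the deleted libraries. Gar1, the protein that joins the mature particle last (ENSMUSG00000028010, chr3:129527830-129534314), had 30.3 and 20.6 CPM in the control and 20.5 and 16.3 CPM in the deleted libraries. For both genes the deleted libraries were the lower, for Gar1 with control replicate 2 and deleted replicate 1 almost level. The log2 fold change was -0.50 (SE 0.24, 95% interval -1.07 to 0.06, edgeR adjusted p = 0.475) for Dkc1. For Gar1 it was -0.43 (SE 0.30, 95% interval -1.13 to 0.27, edgeR adjusted p = 0.628). Neither size was steady, since leaving out 1 library at a time gave -0.74 (without control replicate 2) to -0.22 (without control replicate 1) for Dkc1. For Gar1 the values were -0.73 without deleted replicate 1, -0.70 without control replicate 2, -0.17 without deleted replicate 2 and -0.12 without control replicate 1.

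Nop10, the small protein that organises the catalytic core of the particle (ENSMUSG00000027133, chr2:112102083-112103426), had 72.0 and 45.6 CPM in the control and 51.2 and 45.3 CPM in the deleted libraries. Nhp2, which binds the RNA fold directly (ENSMUSG00000001056, chr11:51433237-51437216), had 142 and 86.8 CPM in the control and 120 and 84.8 CPM in the deleted libraries. For both genes the groups overlapped, and in each group replicate 1 was above replicate 2. The log2 fold changes were -0.26 (SE 0.28, 95% interval -0.90 to 0.39, edgeR adjusted p = 0.780) for Nop10 and -0.12 (SE 0.32, 95% interval -0.86 to 0.63, edgeR adjusted p = 0.923) for Nhp2. Without control replicate 1 they turned to 0.12 and 0.29, and without deleted replicate 1 they were -0.46 and -0.52. Without deleted replicate 2 the value of Nhp2 was 0.21, and without control replicate 2 that of Nop10 was -0.56.

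The 4 shelterin proteins also had log2 fold changes below 0, and 0 of 4 were called. Pot1a, which covers the single-stranded overhang (ENSMUSG00000029676, chr6:25693737-25759246), had 47.8 and 48.4 CPM in the control and 31 and 38.1 CPM in the deleted libraries. Terf1, which binds the double-stranded repeats and limits elongation (ENSMUSG00000025925, chr1:15795739-15833551), had 33.2 and 35.2 CPM in the control and 21.3 and 29.1 CPM in the deleted libraries. In both genes the deleted libraries were the lower, and deleted replicate 1 was the lowest. The log2 fold changes were -0.46 (SE 0.20, 95% interval -0.93 to 0.01, edgeR adjusted p = 0.415) for Pot1a and -0.43 (SE 0.22, 95% interval -0.94 to 0.08, edgeR adjusted p = 0.494) for Terf1. Pot1a has a paralog, Pot1b.

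Terf2, which keeps chromosome ends from being joined (ENSMUSG00000031921, chr8:109593300-109620447), had 39.7 and 34.8 CPM in the control and 31.6 and 30.1 CPM in the deleted libraries, with no overlap of the groups on this scale. Its log2 fold change was -0.24 (SE 0.22, 95% interval -0.76 to 0.27, edgeR adjusted p = 0.730). With normalization factors applied the groups overlapped, at 34.1 in control replicate 2 and 34.2 in deleted replicate 1. The log2 fold change ran from -0.39 without deleted replicate 1 to -0.093 without deleted replicate 2. Tinf2, the bridge between Terf1, Terf2 and the rest of the complex (ENSMUSG00000007589, chr14:56295455-56300654), had 32.3 and 29.7 CPM in the control and 25.9 and 34.4 CPM in the deleted libraries. The deleted libraries of Tinf2 enclosed both controls. Its log2 fold change was the closest to 0 of the 10 genes, at -0.026 (SE 0.22, 95% interval -0.53 to 0.48, edgeR adjusted p = 0.976), and its sign turned in 3 of 15 alternative fits, among them that without deleted replicate 1 (0.071).

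Some of these counts can mix with those of another gene. The share of 31-base stretches that occur elsewhere in the genome was highest for Nop10 (9.06%), Dkc1 (7.95%) and Pot1a (6.70%), whose counts are the less certain for it, and at most 4.55% for the others. Dkc1 holds the snoRNA SNORA36 within it, with 11 and 10 counts in the controls but 1 and 3 after deletion, and overlaps Mpp1 on the opposite strand (log2 fold change 0.23, edgeR adjusted p = 0.785). Nhp2 overlaps Rmnd5b (0.094, edgeR adjusted p = 0.915) and Tinf2 overlaps Gmpr2 (-0.22, edgeR adjusted p = 0.769), both on the opposite strand. The library kit keeps strand, but the strand setting of the counting is not given in the sources used here. None of the genes on the opposite strand was called, and SNORA36 was not tested, being below the filter on low counts.

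Compared per length of exon, Terc moved from the third to the first of the 10 genes. In control HSPCs the order of the mean levels, in CPM per kb of exon, was Nhp2 (99.9), Nop10 (53.0), Terc (39.5), Dkc1 (38.9), Terf1 (20.4), Gar1 (14.9), Tinf2 (10.5), Terf2 (8.10), Pot1a (5.54) and Tert (0.278). The ranges of Terc and of its neighbours Nop10 and Dkc1 overlapped there. Within a library, Nop10 was above Terc in both controls, and Dkc1 was above it in control replicate 1 only. In Chaf1b-deleted HSPCs Terc stood at 231 CPM per kb, above Nhp2 (89.4), Nop10 (43.5), Dkc1 (26.9), Terf1 (15.0), Gar1 (10.7), Tinf2 (10.2), Terf2 (6.71), Pot1a (3.98) and Tert (0.416), and of the neighbours in this order only Gar1 and Tinf2 had overlapping libraries. Per-length levels of an RNA as short as Terc depend on fragment length, whose part was not tested.

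Set against its protein partners in the same library, Terc went from about level with dyskerin to well above it. The ratio of Terc to Dkc1 per kb was 0.939 and 1.13 in the controls, against 8.30 and 8.90 after deletion. The ratio of Terc to Nhp2 was 0.344 and 0.479 in the control and 2.18 and 3.17 in the deleted libraries, so that Terc passed the most abundant of the proteins. Against Nop10 the ratio was 0.658 and 0.882, then 4.95 and 5.75, and against Gar1 it was 2.41 and 3.02, then 19.1 and 24.7. Against Tert it was 159 and 126 in the control and 921 and 401 in the deleted libraries, where Tert had only 20 and 37 counts. For each of the 5 ratios the deleted libraries exceeded the controls, a pattern set mainly by the rise of Terc that chose the genes. These are ratios of read counts per length, not of molecules in a particle.

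**Figure D2:**
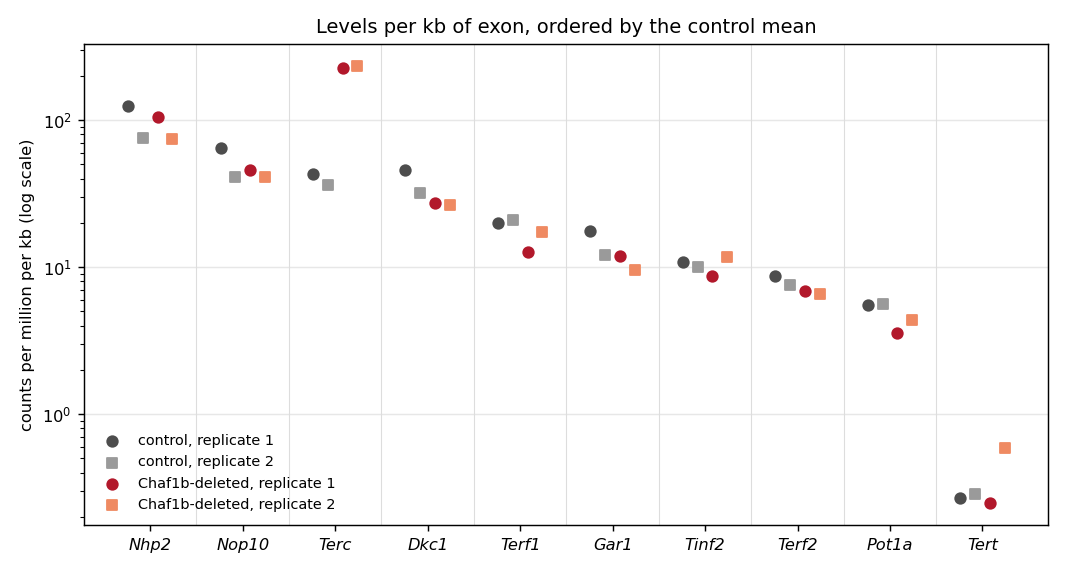
CPM per kb of exon (log axis) of the 10 genes in each of the 4 libraries, 1 point per library with no error bars, ordered by the control mean. Terc lies beside Nop10 and Dkc1 in the control libraries and above all 9 other genes in the deleted libraries, at a mean of 231 CPM per kb.

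The other genes of the pathway showed no call either. Of 34 further genes of telomere maintenance, all 34 were tested, 0 were called (0.376% of all genes), 8 had a log2 fold change above 0 and 26 below 0, and the median was -0.21. Both deleted libraries were below both controls for 16 of the 34 (47.1%, against 22.9% of all genes) and above them for 2 (5.88%, against 21.4% by this measure and 22.3% with normalization factors). With those factors the counts were 15 and 2. At an unadjusted p under 0.05 there were 3, Blm, Rtel1 and Parn, against 12.3% of all genes. Blm, a helicase that helps replicate telomeres, had 143 and 132 CPM in the control and 64.5 and 104 CPM in the deleted libraries (log2 fold change -0.70, SE 0.23, edgeR adjusted p = 0.277). Rtel1, a helicase that unwinds telomere loops, had 87.0 and 75.3 CPM against 52.0 and 61.1 CPM (log2 fold change -0.50, SE 0.20, edgeR adjusted p = 0.374). In both helicases deleted replicate 1 was the lowest library, and without it the values were -0.48 for Blm and -0.49 for Rtel1. The median of the 34 was then -0.23, again with 26 below 0.

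Genes for the processing and decay of the telomerase RNA were taken as a list of 7. They are the nucleases Parn, Toe1 and Exosc10, the tailing polymerase Papd5, the exosome adaptor Zcchc8, the poly(A)-binding protein Pabpn1 and the cap methyltransferase Tgs1. All 7 had log2 fold changes below 0, with a median of -0.23, and 0 were called. Parn, the deadenylase that removes the oligo(A) tail from the RNA, had 42.4 and 36.2 CPM in the control and 25.2 and 29.0 CPM in the deleted libraries, again without overlap (log2 fold change -0.52, SE 0.22, edgeR adjusted p = 0.388). Among 8 genes of telomerase assembly and trafficking 6 were below 0, with a median of -0.19, or -0.43 without deleted replicate 1. The largest change there was that of Ruvbl1, an ATPase of telomerase assembly, with 44.8 and 24.9 CPM in the control and 24.2 and 20.5 CPM in the deleted libraries (log2 fold change -0.61, SE 0.33, edgeR adjusted p = 0.518).

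The 3 shelterin genes outside the group had a median of 0.27, with 1 of the 3 below 0, and without deleted replicate 1 a median of 0.027 with none below 0. Terf2ip, the partner of Terf2, had 20.5 and 18 CPM in the control and 25.7 and 24.7 CPM in the deleted libraries (log2 fold change 0.42, SE 0.24, edgeR adjusted p = 0.549). Acd, which brings telomerase to the chromosome end, had a log2 fold change of 0.27 and Pot1b one of -0.28. Without deleted replicate 1 these became 0.28 for Terf2ip, 0.0014 for Acd and 0.027 for Pot1b. Pot1b shares 22.0% of its 31-base stretches with other places in the genome. The list of CST and telomere replication genes (10, with 7 below 0) had a median of -0.24, and the list of tankyrases and telomere chromatin genes (6, with 5 below 0) also had a median of -0.24, which was -0.13 without deleted replicate 1. The largest change of the last was that of Atrx, the chromatin remodeller of telomeres and heterochromatin, with 537 and 591 CPM in the control and 301 and 481 CPM in the deleted libraries (log2 fold change -0.52, SE 0.25, edgeR adjusted p = 0.468). Without deleted replicate 1 the value of Atrx was -0.31.

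**Figure D3:**
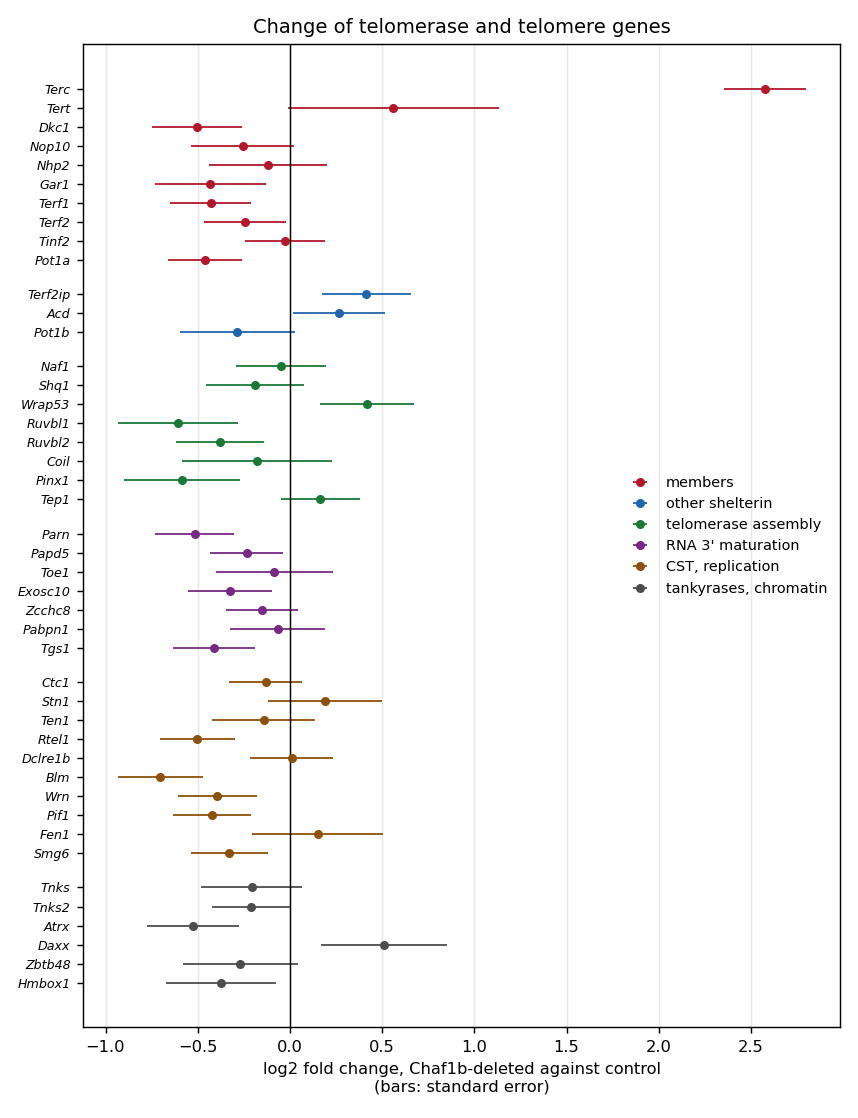
Fitted log2 fold change, Chaf1b-deleted against control, of the 10 genes and of 34 further telomere genes, coloured by list, with bars of 1 standard error from edgeR. Terc stands at 2.58, and the other genes lie between -0.70 and 0.56, with 0 of them called.

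Other lists of genes are given beside these values. The 12 proliferation genes had a median log2 fold change of -0.41, with 11 of them below 0. For 11 both deleted libraries were below both controls on the CPM scale (22.9% of all genes). The largest of these was Mki67, the marker of cycling cells, at -1.10 (SE 0.33, edgeR adjusted p = 0.229), and 0 of the 12 were called. Of 8 genes for Myc and for nucleolar C/D box proteins 6 were below 0 with a median of -0.46. Among them Myc, a known activator of Tert and Dkc1, was at -0.44, and Mycn, its paralog, was at 0.91 (edgeR adjusted p = 0.340), the largest change of the list. Their part in the values of the telomerase and shelterin genes was not tested. Markers of other cell types that the sorted cells could include were called in 0 cases, the T cell markers being below the filter on low counts. Their summed CPM in control replicates 1 and 2 and deleted replicates 1 and 2 were 80.0, 183, 168 and 149 for monocyte, 88.4, 87.8, 128 and 224 for megakaryocyte and 841, 471, 669 and 758 for mast or basophil markers. Csf1r made up most of the monocyte sum, at 59.5 to 158 CPM, and the other 2 monocyte markers were higher in both deleted libraries. Cd14 had 15.9 and 22.6 CPM against 61.3 and 49.7 (log2 fold change 1.57, edgeR adjusted p = 0.0758), and Cx3cr1 had 4.71 and 2.28 CPM against 7.99 and 9.75 (1.36, edgeR adjusted p = 0.262). All 3 megakaryocyte markers were higher in both deleted libraries (21.4% of all genes). The largest of their changes was that of Pf4, with 14.9 and 21.6 CPM against 37.3 and 58.5 (log2 fold change 1.40, edgeR adjusted p = 0.0986). The part of these markers in the values of the telomerase and shelterin genes was not tested. B cell, erythroid, T cell and stroma or endothelium markers each summed to 13.5 CPM or less in every library, and of these the B cell and stroma sums were higher in both deleted libraries. No marker was at 0 in all 4 libraries.

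Short noncoding RNAs are given as a class beside Terc. Of 264 short noncoding RNA genes tested, up to 500 bases long, 89 had a log2 fold change above 0 and 175 below 0, with a median of -0.22. This balance came from deleted replicate 1. Without it 153 of the 262 genes tested in both fits were above 0 and 109 below 0, with a median of 0.092, while Terc was at 2.49. Terc had the highest value of the 51 tested genes of biotype misc_RNA, the next being AC110211.1 at 1.60, and the second highest of the 264. The highest was mmu-mir-689-2, which was named after its value was seen, with 140 and 382 control counts against 3536 and 4493 counts after deletion (log2 fold change 4.22, edgeR adjusted p = 0.0254). Among all 16500 genes Terc ranked 231st by log2 fold change. The group was chosen by the rise of Terc, so these ranks are a description and not a test.

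The H/ACA snoRNAs, which are bound by the same proteins as Terc, had a median below 0 with deleted replicate 1 and near 0 without it. Of 72 tested, 56 were below 0 and 16 above, the median was -0.41, 0 were called, and the values ran from -1.78 to 0.87. The lower values came from 1 deleted library, since the median log2 difference from the control mean was -0.62 in deleted replicate 1 and 0.059 in deleted replicate 2. Fitted without deleted replicate 1, 36 of 71 were above 0 and the highest value was 1.22. The 45 C/D snoRNAs had a median of -0.33, or 0.059 without deleted replicate 1, and the 38 spliceosomal snRNAs one of -0.27, or 0.28 without it. The 16 RNAs of the Cajal body, taken by their names, had a median of -0.052, or 0.081 without that library. Terc itself stood at 96.6 CPM in deleted replicate 1 and 99.2 CPM in deleted replicate 2. The share of reads outside genes, 42.3% and 42.1% in the control and 35.8% and 48.3% in the deleted libraries, was lowest in deleted replicate 1. The part of the difference between the deleted libraries in the values of the snoRNAs and of Terc was not tested.

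**Figure D4:**
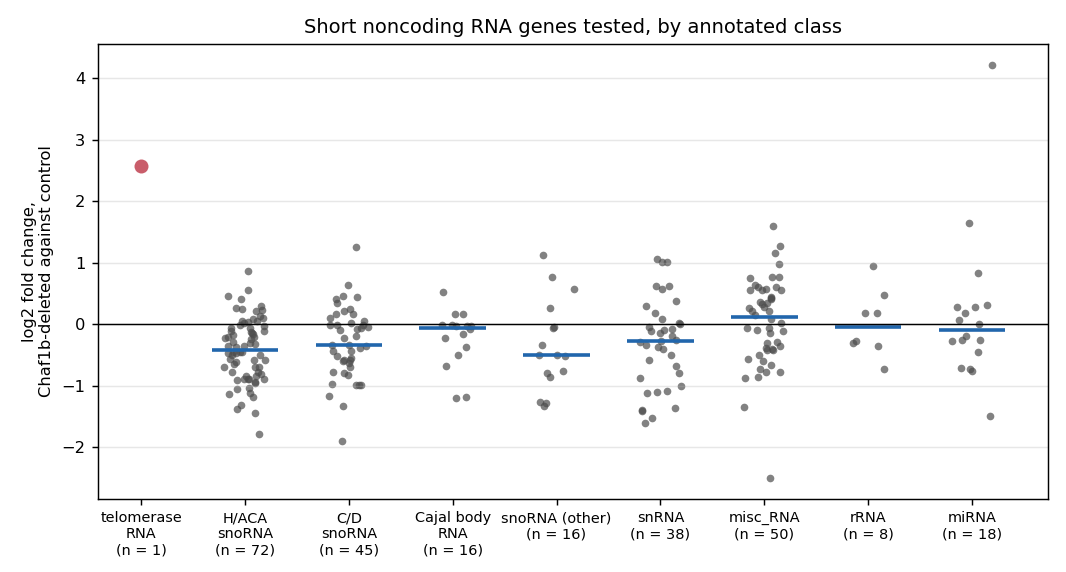
Fitted log2 fold change of the 264 short noncoding RNA genes tested, 1 point per gene, by class, with a bar at the median of each class. Terc (2.58) lies above all 72 H/ACA snoRNAs, whose median is -0.41 here and near 0 without deleted replicate 1, and only the microRNA gene mmu-mir-689-2, at 4.22, lies higher. The group was chosen by the rise of Terc, so its place here is a description only.

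The surroundings of Terc gave little to compare. Within 100 kb of it the annotation lists 14 other genes, 8 of them snRNAs, 5 lincRNAs and 1 protein-coding gene, BC107364. Only 2 of the 14 have rows in the count data used here, BC107364 with 0, 0, 1 and 0 counts and a U1 snRNA with 0 in each library, and the other 12 were not analysed here. In the 300 bases around the start of Terc (250 before and 50 after, NCBIM37) the motifs CCAAT and GGGCGG were found and CACGTG was not, reading both strands. Over 32851 promoter windows of the same length from RefSeq (GRCm38.p6), CCAAT was found in 37.4%, GGGCGG in 35.7% and CACGTG in 7.15%. Windows were found for 8 of the other 9 genes, all but Terf1. Among them CCAAT was found in Dkc1, Nop10, Nhp2 and Terf2, GGGCGG in Tert, Nhp2, Terf2 and Pot1a, and CACGTG in none. A match in letters describes the window and is not a binding site.

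On a scale that adds 0.5 CPM before the log, genes of other functions had profiles like that of Terc. Ranked by the distance between centred log2(CPM + 0.5) profiles over the 4 libraries, the nearest were Serpina12, a secreted protease inhibitor (distance 0.221), Elovl4, an enzyme of very long fatty acid synthesis (0.232), 9530008L14Rik (0.234), Cacnb3, a calcium channel subunit (0.263), and Gjb5, a gap junction protein (0.298). Serpina12 had 9 and 11 control counts against 106 and 82 after deletion, and Cacnb3 had 34 and 43 against 256 and 209. The gene 9530008L14Rik had 103 and 98 counts against 610 and 407. Elovl4 had 5 and 0 counts against 66 and 50, and Gjb5 had 3 and 0 against 58 and 38, so that their control levels rest on 5 counts or fewer in a library. The fitted log2 fold changes were 3.44 for Serpina12, 4.66 for Elovl4, 2.55 for 9530008L14Rik, 2.82 for Cacnb3 and 5.08 for Gjb5, against 2.58 for Terc. The added 0.5 CPM narrows the change of a gene with a low control level. Likeness by this distance is therefore not likeness in fold change. All 5 were chosen by their likeness to Terc in these 4 libraries, which describes the pattern only.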

How the data were processed

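Total RNA was sequenced from 2 control and 2 Chaf1b-deleted HSPC libraries, and groups and replicate numbers were taken from the sample labels. The authors aligned reads with STAR to mm9 and assigned them to genes with HTSeq-count. The deposited data are raw counts in 1 table for each library, without pooling. The annotation release and strand setting are not given in the sources used here. Reads outside genes were left out of library sizes. Of 43629 identifiers, 33068 were named from NCBIM37.

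From the counts, edgeR 4.0.16 was run in R 4.3.3 on 16500 genes past its expression filter (minimum count 10), with TMM factors from 0.926 to 1.06, glmQLFit and glmQLFTest without a covariate, and Benjamini-Hochberg adjustment over all genes tested. The common dispersion was 0.0763. A call needed 1.5-fold and an adjusted p under 0.05. With 18468637 to 25409926 counts per library, 3 counts correspond to 0.118 to 0.162 CPM, and counting intervals are widest, relative to the level, for Tert. The fit was tested on simulated data.

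The genes and lists were chosen with earlier results of these data known. Named genes were the 10 genes, Chaf1b, the 5 genes nearest to Terc, and genes within 100 kb of it or overlapping one of the 10. Listed telomere genes were given values for an unadjusted p under 0.05 or the largest change of their list. Acd and Pot1b were given values although they met neither rule. Of the other lists single genes were named, not always the largest change. The alternatives were DESeq2 size factors, library size, upper-quartile factors, no filter, 10 counts in every library, 3 other tests (exact and likelihood ratio in edgeR, and DESeq2), the replicate number as a block, protein-coding genes with Terc alone, no genes on X, Y or the mitochondrial genome, and each library left out. The fit without genes on X, Y or the mitochondrial genome kept the 10 genes, so that Dkc1 stayed in, and left out Atrx. Motifs were searched in both strands, and repeated 31-base stretches were counted on the NCBIM37 genome. Other experiments of the study were not analysed here.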

Additional observations from a re-analysis of the deposited data

How the results depend on the processing

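The log2 fold change of Terc lay between 2.45 and 2.70 over 15 alternatives, and moved by more than the spread between replicates only without control replicate 1 (2.70) and without control replicate 2 (2.45). The median of the other 9 genes stayed below 0, between -0.44 and -0.12. None of the 9 and none of the 34 further telomere genes was called under any of the 15. Atrx, on chromosome X, was not part of the fit without genes on X, Y or the mitochondrial genome. Signs turned, none of them called, for Tinf2 with upper-quartile factors (0.0039), without control replicate 1 (0.041) and without deleted replicate 1 (0.071), for Nop10 without control replicate 1 (0.12), for Nhp2 without control replicate 1 (0.29) or deleted replicate 2 (0.21), and for Tert without deleted replicate 2 (-0.027). Leaving out 1 library at a time gave -0.027 to 0.99 for Tert, -0.56 to 0.12 for Nop10, -0.52 to 0.29 for Nhp2, -0.12 to 0.071 for Tinf2, -0.74 to -0.22 for Dkc1, -0.73 to -0.12 for Gar1 and -0.39 to -0.093 for Terf2. Without deleted replicate 1 the median of the short noncoding RNAs turned from -0.22 to 0.092. Without control replicate 1, 5 of the 9 genes were below 0 in place of 8. No filter moved the median of all genes from -0.03 to -0.13.

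The number of all genes called was less steady than these values. It was 61 higher and 1 lower, and became 27 higher with DESeq2 size factors, 30 higher with library size only, 808 higher and 79 lower with no filter, and 3 higher and 0 lower with at least 10 counts in every library. The exact test called 537 higher and 37 lower, the likelihood ratio test 583 and 40, and DESeq2 471 and 32. Leaving out 1 library, which leaves a single library assumed to vary like those of the other group, gave 125 to 331 higher and 6 to 42 lower. The cause was not tested. With the replicate block 14 genes were called higher and 0 lower, Terc was at 2.58 and the median of the 9 genes at -0.24. Deviations of same-numbered libraries had a correlation of 0.0133 over 16500 genes. With 2 libraries a group and deleted replicate 1 standing apart, this value cannot show whether same-numbered libraries share a mouse or a preparation. Xist had 26 counts in control replicate 1 and 7905 in deleted replicate 1, and 33 and 23 in the libraries numbered 2. Mice of both sexes were used in the study, and the sex behind each library was not tested. With 2 libraries a group, the intervals of the 9 genes are wide, and changes within them were not detectable.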
